A study of Mus musculus with 18 samples.

Results

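The subject here is 10 heat shock chaperone genes of the mouse heart, followed through pregnancy, birth and exercise: Hspa1a, Hspa1b, Hsp90aa1, Hsp90ab1, Hsph1, Dnajb1, Hspb1, Hspa8, Cryab and Hspe1. The genes were a list chosen with earlier results of these data known. Their values are those of the probe sets that the array annotation gives to one of these symbols and to no other gene. By that rule 9 of the 10 genes had a probe set of their own, with 24 probe sets in all out of 45037 tested, and these 9 stood among 18193 genes with such a probe set. The rule left Hsp90ab1 without a probe set, and no value is given for it.

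Left ventricular RNA was profiled on 18 Affymetrix arrays, 3 in each of 6 groups of female, wild type C57Bl/6 mice aged 3 to 4 months. The sedentary virgin controls (NP/Sed) were taken in diestrus, the 7EX and 21EX groups had run on a voluntary wheel for 7 or 21 days, MP hearts came from day 11 of pregnancy, LP hearts from days 18 to 19, and 0PP hearts from within 12 hours of parturition. Each array held RNA pooled from 2 to 3 hearts, so that the spread between arrays is that between pools. The values are log2 RMA values, a difference of 1 is a doubling of signal, and a gene is said to have risen or fallen where the limma p, adjusted over all probe sets of the comparison, was under 0.05. Where a gene had several probe sets, that of the highest mean over the 18 arrays stands for it unless another is named. The 9 comparisons share arrays, since 0PP enters 5 of them and NP/Sed enters 5.

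Heat shock proteins bind unfolded or partly folded proteins and hold them, refold them or pass them on for degradation. HSP70 proteins work in an ATP-driven cycle that is started by a J-domain partner and reset by a nucleotide exchange factor, and HSP90 takes over part of their clients, among them steroid hormone receptors and kinases. The inducible members are switched on by heat shock factors, which bind inverted repeats of the unit GAA in the promoter, while cardiac muscle holds large amounts of small heat shock proteins at all times.

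The promoters of the inducible HSP70 pair are shown because the pair carried the clearest difference after birth and because the genes are nearly the same in sequence. RefSeq windows of the 250 bases before the transcription start (build GRCm38.p6) were found for 6 of the 10 genes, in 8 windows. In the sequences, written 5′ to 3′ on the strand of the gene, capitals mark matches to GAANNTTC or TTCNNGAA, the 2 ways in which a pair of inverted GAA units can face each other. Each of these motifs is its own reverse complement, so that a search of one strand covers both. The Hspa1b window lies on the minus strand at chr17:34959239-34959488 and the Hspa1a window on the minus strand at chr17:34972157-34972406.
Hspa1b: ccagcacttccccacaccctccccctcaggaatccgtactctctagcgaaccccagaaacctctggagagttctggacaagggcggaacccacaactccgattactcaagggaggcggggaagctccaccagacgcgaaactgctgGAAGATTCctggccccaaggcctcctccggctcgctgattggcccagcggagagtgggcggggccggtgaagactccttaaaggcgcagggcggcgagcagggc
Hspa1a: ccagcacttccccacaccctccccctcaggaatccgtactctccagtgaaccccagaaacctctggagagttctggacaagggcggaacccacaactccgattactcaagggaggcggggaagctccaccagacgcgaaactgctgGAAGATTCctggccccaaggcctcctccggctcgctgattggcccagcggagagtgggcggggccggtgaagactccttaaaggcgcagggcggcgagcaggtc
The pair differed at 3 of 250 bases (98.8% identical): T44C, C47T and G249T, with the Hspa1b base first, the Hspa1a base last and positions counted from 1 at the 5′ end. Both held one match, GAAGATTC, from 104 to 97 bases before the start.

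For Hsph1, Hspb1 and Hspe1 the stretch from 150 to 31 bases before the start is shown, as the part that holds the matches of the other genes: chr5:149636346-149636465 on the minus strand for Hsph1 (the downstream of its 2 RefSeq starts), chr5:135887769-135887888 on the plus strand for Hspb1 and chr1:55087998-55088117 on the plus strand for Hspe1.
Hsph1: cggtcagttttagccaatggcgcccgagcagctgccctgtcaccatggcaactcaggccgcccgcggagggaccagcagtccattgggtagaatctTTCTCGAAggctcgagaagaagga
Hspb1: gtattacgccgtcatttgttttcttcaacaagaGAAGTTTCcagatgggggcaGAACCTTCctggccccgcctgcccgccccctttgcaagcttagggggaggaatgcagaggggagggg
Hspe1: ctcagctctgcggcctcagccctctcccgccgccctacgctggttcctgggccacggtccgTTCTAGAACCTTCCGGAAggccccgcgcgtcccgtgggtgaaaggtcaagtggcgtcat
The Hsph1 stretch held TTCTCGAA, that of Hspb1 GAAGTTTC and GAACCTTC, and that of Hspe1 a run of 3 overlapping matches (TTCTAGAA, GAACCTTC and TTCCGGAA). A match was thus found in 5 of the 6 genes with a window and in 6 of the 8 windows, whereas both Dnajb1 windows held none. The second Dnajb1 window lies wholly downstream of the start that its first window precedes. Of all 32851 RefSeq windows of this length 12.8% held either motif (GAANNTTC 6.69%, TTCNNGAA 7.17%), and 0.466% held a run of 3 units, TTCNNGAANNTTC or GAANNTTCNNGAA, as that of Hspe1 did. A match describes the letters only, and no binding was measured.

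Across the 6 groups, 0PP had the highest mean of Hspa1a, Hspa1b, Hsp90aa1, Dnajb1 and Hspa8, that is 5 of the 9 genes, against 16.4% of all genes. 21EX had the highest mean of the other 4: Hsph1, Hspb1, Cryab and Hspe1. No gene had its highest mean during pregnancy. The lowest mean lay in LP for Hsph1, Hspb1, Cryab and Hspe1 and in MP for Hspa1b, Hsp90aa1 and Dnajb1. For Hspa1a and Hspa8 it lay in the shorter running group, so the lowest means were not confined to pregnancy. Apart from the share for 0PP, the shares of all genes with their highest or lowest mean in a group were not counted. Each mean is the level of a single probe set and is compared between groups, never between genes.

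**Figure D1:**
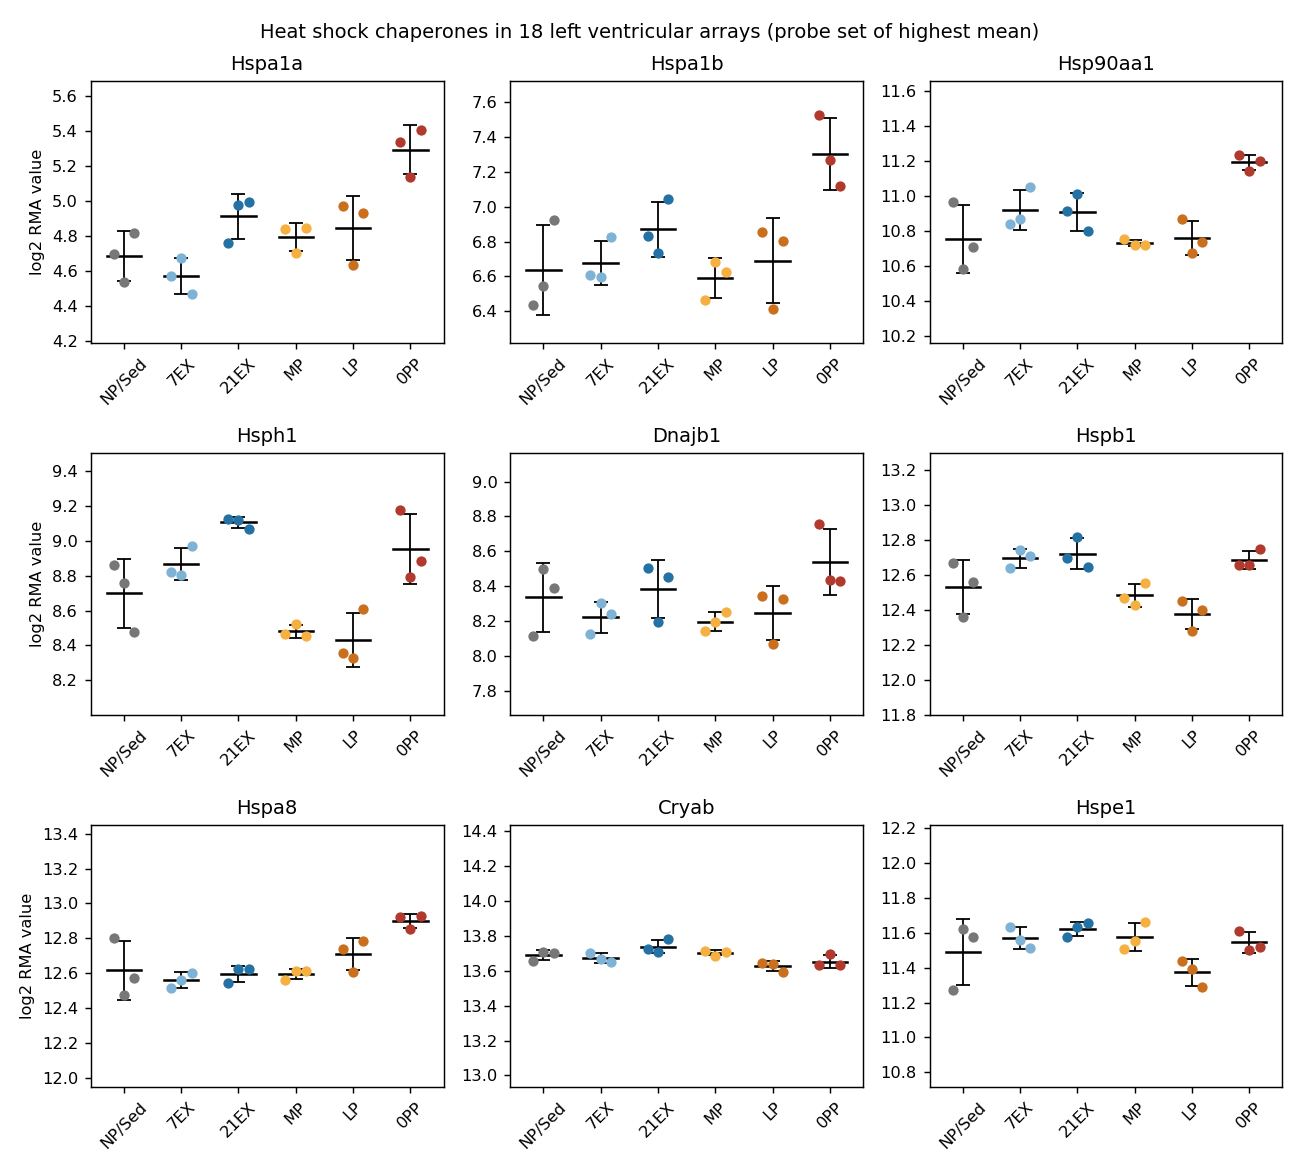
Log2 RMA value (y axis, with its own range in each panel and a span of at least 1.5) of the 9 genes in the 18 arrays by group (x axis). Points are arrays, bars are group means and whiskers are SD (n = 3). At the probe set of highest mean, 0PP arrays of Hspa1a, Hspa1b, Hsp90aa1 and Hspa8 lie above all 15 arrays of the other groups. This does not hold at every probe set of Hspa1b, Hsp90aa1 and Hspa8, and the share of all genes separated in this way was not counted. Cryab stays between 13.59 and 13.78 in all 18.

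The inducible HSP70 genes were highest within hours of birth. Hspa1a (probe set 1452388_at) encodes a stress-inducible HSP70 and read 5.34, 5.13 and 5.40 in the 3 0PP arrays, against 4.97, 4.63 and 4.93 in LP, 4.84, 4.70 and 4.84 in MP, and 4.70, 4.54 and 4.82 in NP/Sed. In the runners it read 4.57, 4.68 and 4.47 in 7EX and 4.76, 4.97 and 4.995 in 21EX. Every 0PP array thus stood above every other array. This sole probe set of Hspa1a was dim, with a mean of 4.85 over the 18 arrays, at percentile 47.8 of all probe sets. The alternative setting that kept only probe sets with a mean of at least 5 left it out. Hspa1a rose 1.53-fold in 0PP over NP/Sed (log2 fold change 0.61 ± 0.11 SE, adjusted p = 0.0100), 1.65-fold over 7EX (0.72 ± 0.11, adjusted p = 0.00428) and 1.41-fold over MP (0.50 ± 0.11, adjusted p = 0.0437). Its difference from LP was 0.45 ± 0.11 and missed the threshold with an adjusted p of 0.0505, which came under it without NP/Sed-2 or without NP/Sed-3. From 21EX, the next group in order, it differed by 0.38 ± 0.11 (adjusted p = 0.131), and below 21EX the arrays of each group overlapped those of the next in the order LP, MP, NP/Sed and 7EX.

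Hspa1b, the twin of Hspa1a, had 3 probe sets, and all of them passed in the same 4 comparisons. The one of highest mean (1452318_a_at) read 7.52, 7.26 and 7.12 in 0PP, 6.86, 6.41 and 6.80 in LP, 6.47, 6.68 and 6.63 in MP, and 6.44, 6.55 and 6.92 in NP/Sed. The running groups read 6.61, 6.60 and 6.83 (7EX) and 6.83, 6.73 and 7.04 (21EX). All 0PP arrays were again above all others, with 0PP-1 the highest and LP-2 the lowest. The rise was 1.59-fold over NP/Sed (0.67 ± 0.14, adjusted p = 0.0234), 1.53-fold over LP (0.61 ± 0.14, adjusted p = 0.0413), 1.64-fold over MP (0.71 ± 0.14, adjusted p = 0.0345) and 1.54-fold over 7EX (0.62 ± 0.14, adjusted p = 0.0495). Against 21EX the difference was 0.43 ± 0.14 (adjusted p = 0.204), and below 0PP each group overlapped the next in the order 21EX, LP, 7EX, NP/Sed and MP. The rise over NP/Sed lost its call without NP/Sed-2, 0PP-1 or 0PP-2 (log2 fold changes from 0.55 to 0.81 over the 18 arrays left out in turn). That over LP lost its call with any of 9 arrays left out, among them LP-2, LP-3, 0PP-1 and 0PP-2 (0.47 to 0.70).

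Of the 24 probe sets, 1427126_at of Hspa1b gave the widest differences that passed the test. It read 6.59, 5.90 and 6.07 in 0PP, 5.44, 4.91 and 5.68 in LP, 4.80, 4.89 and 4.81 in MP and 5.18, 5.19 and 5.04 in NP/Sed, and 5.61, 5.31 and 6.00 in 21EX. Here one 21EX array reached into the range of 0PP, whereas the LP, MP, 7EX and NP/Sed arrays all lay below it. The rise was 2.56-fold over MP (1.36 ± 0.18, adjusted p = 0.0155), 2.08-fold over NP/Sed (1.05 ± 0.18, adjusted p = 0.0109), 2.11-fold over 7EX (1.08 ± 0.18, adjusted p = 0.0115) and 1.80-fold over LP (0.85 ± 0.18, adjusted p = 0.0347). At 1427127_x_at the rise was 1.85-fold over MP, 1.66-fold over NP/Sed, 1.56-fold over 7EX and 1.52-fold over LP. Because the genes are near-identical copies, signal from one may be read by the probes of the other, and a probe set with the ending x_at can hold probes that match further sequences, so the share of each gene in these rises is uncertain.

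**Figure D2:**
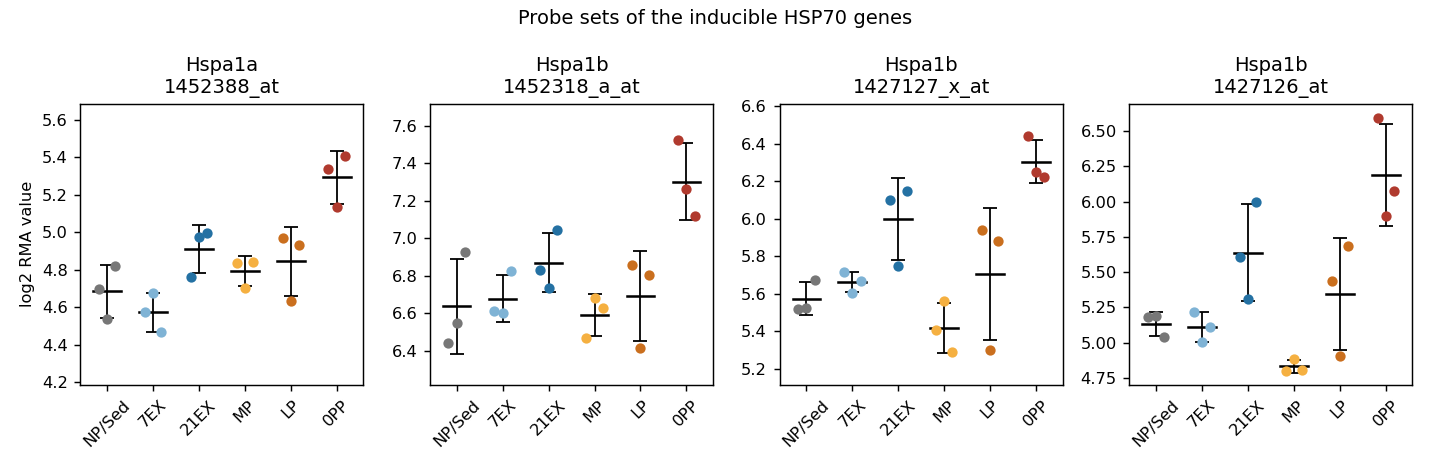
Log2 RMA value (y axis, own range per panel) of the probe set of Hspa1a and the 3 of Hspa1b in each array, by group (x axis); points are arrays, bars are means and whiskers are SD (n = 3). The 0PP mean is the highest in all 4 panels, at 5.29, 7.30, 6.31 and 6.19, with 21EX second.

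Hsp90aa1, the inducible cytosolic HSP90, read 11.23, 11.14 and 11.20 in 0PP by its brightest probe set (1438902_a_at). In LP it read 10.87, 10.68 and 10.74, in MP 10.75, 10.72 and 10.72, in NP/Sed 10.97, 10.58 and 10.71, in 7EX 10.84, 10.87 and 11.05, and in 21EX 10.91, 11.01 and 10.80. The 0PP arrays lay close together and above all 15 others. Hsp90aa1 rose 1.36-fold over NP/Sed (0.44 ± 0.09, adjusted p = 0.0246), 1.35-fold over LP (0.43 ± 0.09, adjusted p = 0.0320) and 1.38-fold over MP (0.46 ± 0.09, adjusted p = 0.0375). The differences from 7EX (0.27 ± 0.09, adjusted p = 0.234) and 21EX (0.28 ± 0.09, adjusted p = 0.217) did not pass. Below 0PP each group overlapped the next in the order 7EX, 21EX, LP, NP/Sed and MP, while the MP arrays lay below those of 7EX and 21EX. The rise over NP/Sed lost its call without NP/Sed-2, NP/Sed-3 or any one 0PP array (0.35 to 0.55) and with its probe sets averaged (0.21), and that over LP without LP-2, LP-3 or any one 0PP array (0.39 to 0.49).

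The other probe sets of Hsp90aa1 were less uniform. At 1426645_at the 0PP arrays read 10.51, 10.33 and 10.19, those of MP 9.87, 9.23 and 9.50, and those of NP/Sed 10.39, 9.93 and 10.02. 0PP and NP/Sed overlapped there, while MP lay below both. The gene rose 1.75-fold over MP at this probe set (0.81 ± 0.17, adjusted p = 0.0386), and its MP value was lower than that of NP/Sed by a log2 fold change of -0.58 ± 0.17 that missed the threshold (adjusted p = 0.0965). The remaining 3 probe sets passed in none of the 9 comparisons, and 2 of them (1433251_at and 1441827_x_at) had means of 4.26 and 3.07.

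Hsph1, an HSP110 protein that resets HSP70 by nucleotide exchange, was high after birth and also after 21 days of running. At 1425993_a_at the 0PP arrays read 9.18, 8.79 and 8.88 and the LP arrays 8.36, 8.33 and 8.61. The MP arrays read 8.47, 8.52 and 8.45, NP/Sed 8.86, 8.76 and 8.48, 7EX 8.82, 8.81 and 8.97 and 21EX 9.13, 9.12 and 9.07. The 0PP arrays cleared both pregnant groups and overlapped the other 3. Hsph1 rose 1.44-fold from LP to 0PP (0.52 ± 0.11, adjusted p = 0.0239), and 1.32-fold in 21EX over NP/Sed (0.41 ± 0.11, adjusted p = 0.0489). Its difference between 0PP and NP/Sed was 0.25 ± 0.11 (adjusted p = 0.221), and that between LP and NP/Sed was -0.27 ± 0.11 (adjusted p = 0.262).

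Against MP, Hsph1 stood 0.47 ± 0.11 higher in 0PP at that probe set (adjusted p = 0.0535) and rose 1.75-fold at 1423566_a_at (0.81 ± 0.18, adjusted p = 0.0464). At the latter NP/Sed-1 read 7.65 beside 6.73 and 6.74 in the other controls, so the control mean there rests on one array that stands apart. There the group means ran, from the highest, 0PP, 21EX, 7EX, LP, NP/Sed and MP. At 1425993_a_at the groups ran 21EX, 0PP, 7EX, NP/Sed, MP and LP in order of level, each overlapping the next. The rise from LP to 0PP lost its call without LP-1, LP-2 or 0PP-1 (0.41 to 0.61). The rise in 21EX was the one call among the members in the comparisons of the running and pregnant groups with NP/Sed, and it was lost with 13 of the 18 arrays left out in turn, including each 21EX array.

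Dnajb1, the J-domain protein that delivers clients to inducible HSP70, passed in no comparison. Its 0PP arrays read 8.76, 8.44 and 8.43, and the LP arrays 8.35, 8.07 and 8.33. Its 0PP mean was the highest of the 6 groups and its arrays lay above those of LP, MP and 7EX, but overlapped those of 21EX and NP/Sed. The log2 fold change was 0.29 ± 0.11 over LP (adjusted p = 0.363), 0.34 ± 0.11 over MP (adjusted p = 0.153) and 0.20 ± 0.11 over NP/Sed (adjusted p = 0.371).

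Hspa8, the constitutive HSP70 that serves folding and clathrin uncoating in unstressed cells, was highest in 0PP at its brightest probe set and passed over 7EX alone. At 1420623_x_at it read 12.92, 12.86 and 12.93 in 0PP and 12.80, 12.48 and 12.57 in NP/Sed. In LP it read 12.74, 12.61 and 12.78, and in 7EX 12.51, 12.56 and 12.60. The 0PP arrays were above all 15 others, with LP second in order. The differences were 0.28 ± 0.08 over NP/Sed (adjusted p = 0.0691), 0.34 ± 0.08 over 7EX (adjusted p = 0.0646), 0.30 ± 0.08 over MP (adjusted p = 0.0908), 0.30 ± 0.08 over 21EX (adjusted p = 0.116) and 0.19 ± 0.08 over LP (adjusted p = 0.413). The difference from NP/Sed passed without NP/Sed-1 (0.38) and in 6 of the 11 alternative settings. At 1455789_x_at, which was about as bright (mean 12.62), 0PP was 12.72 and NP/Sed 12.68, with overlapping arrays (0.04, adjusted p = 0.784). At 1420622_a_at Hspa8 rose 1.29-fold over 7EX (0.37 ± 0.08, adjusted p = 0.0495). The fourth probe set, 1431182_at, varied far more, from 5.18 to 6.43 within 0PP alone, and was highest in 21EX (6.37, 6.46 and 6.82), where its difference from NP/Sed was 0.88 ± 0.28 (adjusted p = 0.0851).

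The small heat shock proteins and the mitochondrial co-chaperonin passed in none of the 9 comparisons, although at an unadjusted p under 0.05 Hspb1 was higher in 0PP than in LP, MP and NP/Sed, Hspe1 higher than in LP, and Cryab higher than in NP/Sed. Hspb1 (HSP27), which holds unfolding proteins and binds the cytoskeleton, read 12.66, 12.65 and 12.75 in 0PP and 12.45, 12.28 and 12.40 in LP. It was lowest in LP, and its 0PP value was near those of 7EX and 21EX, from which it differed by -0.01 ± 0.08 and -0.03 ± 0.08. The difference of 0.31 ± 0.08 between 0PP and LP missed the threshold (adjusted p = 0.0959), as did that of 0.37 ± 0.09 at 1425964_x_at (adjusted p = 0.0552). Cryab (alpha B-crystallin), a chaperone of desmin and titin in cardiac muscle, differed by -0.04 between 0PP and NP/Sed (95% interval -0.16 to 0.09) and by 0.03 between 0PP and LP (-0.10 to 0.15). A second probe set of Cryab gave -0.07 and 0.04, and the last with a mean of 3.18 gave 0.26 over NP/Sed (adjusted p = 0.0537). Hspe1 (HSP10), the lid of the mitochondrial HSP60 chamber, differed by 0.05 between 0PP and NP/Sed (-0.13 to 0.23) and by 0.17 between 0PP and LP (-0.01 to 0.35), and NP/Sed-1 at 11.27 was its lowest array.

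**Figure D3:**
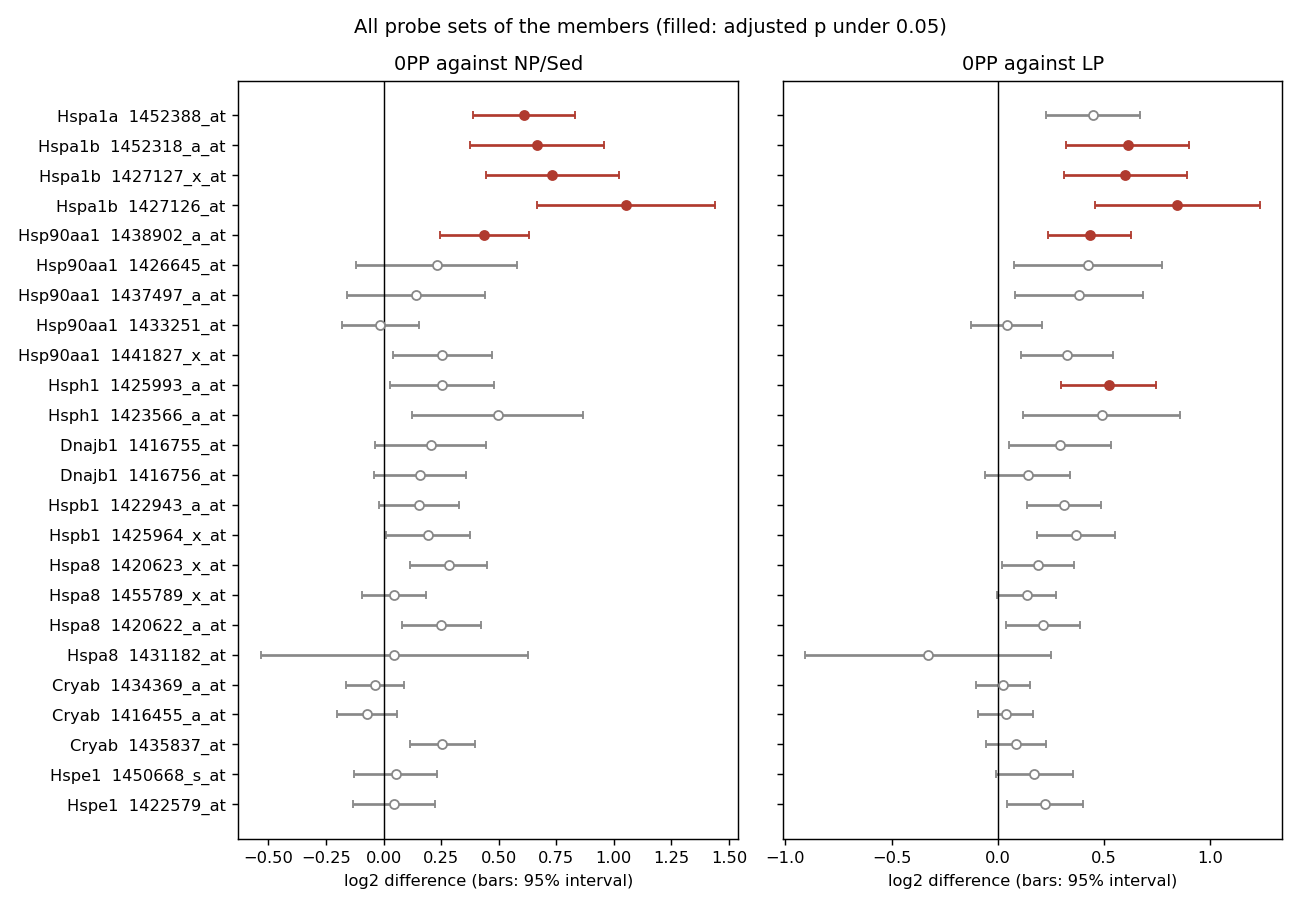
Log2 difference (x axis) of each of the 24 probe sets (y axis) between 0PP and NP/Sed (left) and between 0PP and LP (right), with 95% intervals of the limma fit; filled red points passed an adjusted p of 0.05. On either side 5 of 24 probe sets passed, all higher in 0PP and 3 of them of Hspa1b.

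Because the list was chosen with earlier results of these data known, the shares of all genes beside its counts are a scale and not a test. Counted over the list, Hspa1a, Hspa1b and Hsp90aa1 rose from NP/Sed to 0PP (3 of 9 genes, against 3.07% of all genes) and 0 fell (0.792% of all genes). None was lower at an unadjusted p under 0.05 either (12.9% of all genes), nor by a re-implementation of the Cyber-T test. By probe sets 5 of 24 were higher, against 1.75% of all. The median log2 fold change of the 9 genes was 0.25 and that of all genes 0.01, with 8 of the 9 above 0. In 6 of them the 0PP arrays lay above those of NP/Sed at one or more probe sets, against 19.8% of all genes, with Cryab among the 6 by its dimmest probe set alone. Without NP/Sed-1 the count of genes that rose was 5, and the number of all 45037 probe sets higher in 0PP went from 659 to 1103. The count was 2 without NP/Sed-2, NP/Sed-3, 0PP-1, 0PP-2 or 0PP-3. In that order, the number of all probe sets higher was then 212, 112, 394, 114 and 191. With a change of at least 75% required as well, the limit of the study, the count was 1 (Hspa1b), against 0.165% of all genes.

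From LP to 0PP the genes that rose were Hspa1b, Hsp90aa1 and Hsph1 (3 of 9, against 1.05% of all genes), and 0 fell (0.588% of all genes), with 0 lower at an unadjusted p under 0.05 (7.52%) and 0 by Cyber-T. By probe sets 5 of 24 were higher, against 0.667% of all. All 9 differences were above 0, with a median of 0.31 beside 0.00 for all genes, and in all 9 genes at least one probe set had its 0PP arrays above all LP arrays, against 14.2% of all genes, though for Cryab this was its dimmest probe set alone. The count rested on single arrays: it was 0 without LP-2 and 0 without 0PP-1, and 5 without NP/Sed-2, while the number of all probe sets higher went from 255 to 76, 117 and 236. Array 0PP-1 was the highest of its group for 5 of the 9 genes, and 0PP-2 the lowest for 6. In LP, array LP-2 was the lowest of its group for 7 of the 9 and LP-1 the highest for 7. With the 75% limit Hspa1b alone was counted, 1 of 9 against 0.121% of all genes.

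Against MP, 0PP was higher in Hspa1a, Hspa1b, Hsp90aa1 and Hsph1 (4 of 9, against 0.671% of all genes), with a median of 0.34 beside -0.01 for all genes and non-overlapping arrays in 8 genes (19.4% of all genes). The count was 0 without MP-3, 1 without 7EX-2, MP-2 or any one 0PP array, and 2 without 7EX-3, 21EX-2, 21EX-3 or MP-1. Over all 45037 probe sets the number higher fell as well, from 149 to 1 without MP-3, to 4 to 25 without one 0PP array and to 69 without 7EX-2, so that these lower counts are not particular to the members; without MP-2 it was 142. With the 75% limit 2 were counted (Hspa1b and Hsph1, against 0.0385% of all genes). Against 7EX it was higher in Hspa1a, Hspa1b and Hspa8 (3 of 9, against 0.544% of all genes), with a median of 0.27 beside -0.01 and non-overlapping arrays in 5 genes (16% of all genes). There the count was 1 without 7EX-2, 7EX-3 or 0PP-1, when 35, 46 and 41 of all probe sets were higher in place of 131, and 1 with the 75% limit (Hspa1b, against 0.126% of all genes). Against 21EX no member passed in limma (0.33% of all genes were higher), though at an unadjusted p under 0.05 and any probe set 4 were higher (Hspa1a, Hspa1b, Hsp90aa1 and Hspa8, against 8.71% of all genes) and 2 lower (Hspa8 and Cryab, against 11.1%), and the Cyber-T test passed 3 as higher, 1 of them also as lower at another probe set. That test passed 769 of all 45037 probe sets as higher there, where limma passed 77. The median against 21EX was 0.16 beside -0.02 for all genes, and the arrays did not overlap in 5 genes that were higher (13.1% of all genes), Cryab by its dimmest probe set, and in 1 that was lower (17.4%), Cryab again, at its 2 brighter probe sets.

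**Figure D4:**
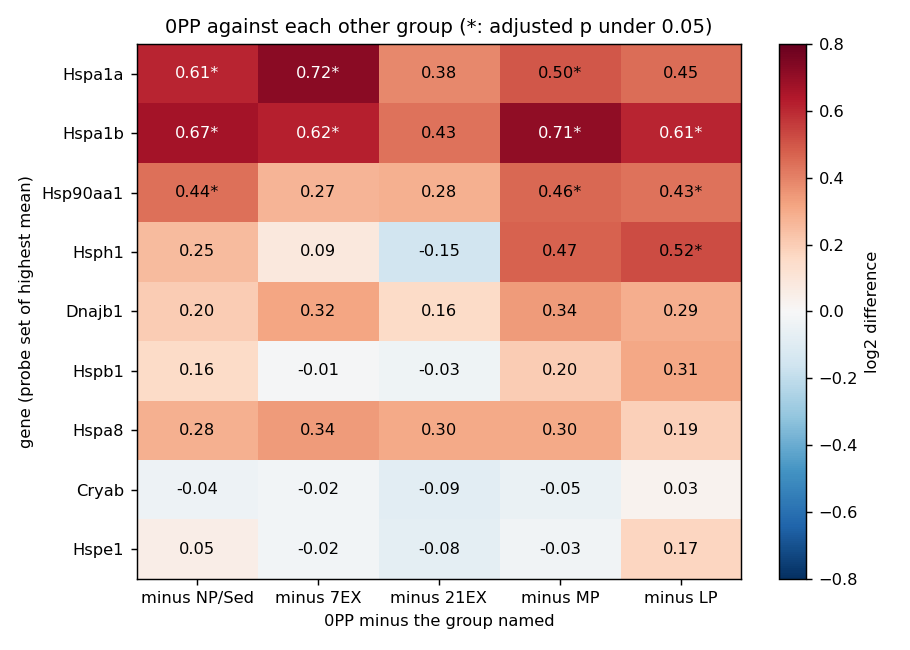
Log2 difference between 0PP and each other group (columns) for the 9 genes (rows) at the probe set of highest mean, given as numbers and as colour; an asterisk marks an adjusted p under 0.05. Hspa1a and Hspa1b differ by 0.38 to 0.72 in all 5 columns, whereas Cryab and Hspb1 stay between -0.09 and 0.31.

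Against NP/Sed, few of the same genes passed before birth or in the runners. In limma 0 of 9 passed in LP, in MP and in 7EX (2.2%, 1.17% and 0.874% of all genes were higher), and 1 of 9, Hsph1, passed in 21EX (2.98%). At an unadjusted p under 0.05 and any probe set, 1 was higher (Cryab, against 13.4% of all genes) and 1 lower (Hsph1, 9.67%) in LP, 1 higher (Cryab, 12.7%) and 1 lower (Hsp90aa1, 10.8%) in MP, and 2 higher (Hspb1 and Cryab, 13.2%) and 1 lower (Hspa8, 9.57%) in 7EX. In 21EX, 6 were higher (Hspa1a, Hspa1b, Hsph1, Hspb1, Hspa8 and Cryab, 20.2%) and 0 lower (12.8%), and the arrays lay above those of NP/Sed at one or more probe sets in 5 genes (23.8%) and below them in 1, Hsp90aa1 (14.8%). Cryab was counted as higher in these 4 comparisons through its dimmest probe set alone (1435837_at, mean 3.18). At its probe set of highest mean it was 13.63 in LP and 13.69 in NP/Sed, with the LP arrays below those of NP/Sed. The Cyber-T test passed 0 in LP and 7EX, 1 in MP, which was lower, and 3 in 21EX, which were higher, out of 475, 471, 968 and 778 probe sets that it passed in those directions. The medians of the 9 genes were -0.06 in LP, -0.02 in MP, 0.04 in 7EX and 0.16 in 21EX, beside 0.01, 0.03, 0.03 and 0.04 for all genes, and 8 of the 9 were above 0 in 21EX.

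Whether the changes seen from NP/Sed to 0PP differ from those seen at another stage is what the direct comparisons of 0PP with that stage test, since NP/Sed cancels. On that reading the 0PP changes of Hspa1b, Hsp90aa1 and Hsph1 differed from the LP changes, and those of Hspa1a, Hspa1b and Hsp90aa1 from the MP changes, and those of Hspa1a and Hspa1b from the 7EX changes. Against the 21EX changes 0 members passed.

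Values of other cell types and of RNA quality are set beside these results, and their part in them was not tested. In bulk RNA, fewer cells of a type and less RNA per cell cannot be told apart. Cardiomyocyte markers were at the same summed level in 0PP (log2 16.84 to 16.86) and LP (16.84 to 16.87) and a little higher in NP/Sed (16.88 to 16.91), with 0 of 7 higher in 0PP, also at an unadjusted p under 0.05, and 1 lower against NP/Sed (Tnnt2, at one of its dimmer probe sets, -0.80, adjusted p = 0.0186). Of 5 fibroblast markers 2 were higher in 0PP than in NP/Sed (Col1a2 and Tcf21) and 3 were higher than in LP (Col1a1, Col1a2 and Tcf21) with Dcn lower, while their summed level ran from 13.13 to 13.28 in 0PP, 13.17 to 13.35 in LP and 13.09 to 13.29 in NP/Sed. Of 5 macrophage markers Cd68 (0.70, adjusted p = 0.00839) and Cd163 (0.45, adjusted p = 0.0498) rose over NP/Sed and none passed against LP (unadjusted, 0 higher and 1 lower), at summed levels of 10.25 to 10.37 in 0PP, 10.24 to 10.40 in LP and 10.07 to 10.19 in NP/Sed. Of 3 erythroid markers with a probe set, Alas2 rose over both (0.60, adjusted p = 0.0281, and 0.95, adjusted p = 0.00177), and the summed level was 7.87 to 8.01 in 0PP, 6.86 to 7.22 in LP and 7.26 to 7.48 in NP/Sed. None of the 5 endothelial, 4 smooth muscle, 3 adipocyte, 2 neutrophil and 5 atrial markers passed in limma in either comparison, while at an unadjusted p under 0.05 the numbers higher over NP/Sed were 2, 0, 1, 1 and 1 (with 1 atrial marker lower) and over LP 1, 1, 0, 0 and 1 (with 0 lower). The atrial markers had medians of 0.57 over NP/Sed and 0.73 over LP, with a summed level of 12.02 to 12.91 in 0PP, 11.11 to 12.07 in LP and 11.58 to 11.95 in NP/Sed. The 3′ minus 5′ signal of beta-actin, a measure of RNA integrity, ran from 1.28 to 1.32 in 0PP, 1.17 to 1.28 in LP, 1.32 to 1.35 in MP, 1.05 to 1.09 in 7EX and 1.11 to 1.36 in NP/Sed. With the mean of this signal and that of Gapdh as a single covariate, the number of members higher in 0PP was 4 over NP/Sed, 2 over LP, 1 over MP and 0 over 7EX. Of all 45037 probe sets 500, 136, 36 and 0 were then higher, in place of 659, 255, 149 and 131, so the counts over MP and 7EX are not particular to the members.

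The partners of these chaperones were counted from lists by function. Of 22 cytosolic co-chaperones and HSP70 and HSP40 relatives, Dnaja1 and Dnaja4 rose over both NP/Sed and LP, and none fell. Dnaja4, a J-domain protein like Dnajb1, rose by 0.52 in either comparison (adjusted p = 0.0151 and 0.0156). Dnaja1, another, rose by 0.39 over LP (adjusted p = 0.0423) and by 0.46 over NP/Sed at 1460179_at (adjusted p = 0.0327), while its probe set of highest mean gave 0.32 there (adjusted p = 0.0662). The call over LP was lost with 14 of the 18 arrays left out in turn, including each LP and 0PP array (0.29 to 0.46), and in 4 of 11 settings. That of Dnaja4 was lost without LP-2, LP-3 or 0PP-2 over LP and without NP/Sed-3 or 0PP-2 over NP/Sed (lowest values 0.48 and 0.40). Bag2, a nucleotide exchange factor of HSP70, differed by 0.35 and 0.27 without passing. The list had medians of 0.12 and 0.10.

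Of 14 HSP90 co-chaperones with a probe set, Fkbp5, an immunophilin of the steroid receptor complex, rose by 0.95 over NP/Sed (adjusted p = 0.0355) and none passed against LP (2 higher and 2 lower at an unadjusted p under 0.05). The call of Fkbp5 was lost without NP/Sed-2, NP/Sed-3, 0PP-1 or 0PP-3 (0.77 to 1.22 over the 18 arrays left out) and in 3 of 11 settings, and its probe sets averaged gave 0.33. The value of Fkbp5 in 0PP was below that in LP by a log2 fold change of -0.59 (adjusted p = 0.330), and it had risen in LP and in MP over NP/Sed as well. Chordc1 differed by 0.26 over NP/Sed (adjusted p = 0.0810) and by 0.31 over LP (adjusted p = 0.0626). The medians of this list were 0.01 and 0.01.

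Hsf1, listed among the heat shock factors, and Dnajc19, listed among the mitochondrial genes, had no probe set of their own, and no value is given for them. None of the 7 other small heat shock proteins, 8 heat shock factors and regulators with a probe set, 13 mitochondrial chaperones and proteases with a probe set, 14 TRiC and prefoldin subunits and 31 proteasome subunits passed in limma in either comparison. At an unadjusted p under 0.05 the numbers higher over NP/Sed were, in the same order, 0, 0, 3, 3 and 11 and lower 1, 1, 1, 2 and 1, and over LP the numbers higher were 1, 0, 1, 3 and 0 and lower 0, 2, 1, 0 and 2. Their medians over NP/Sed were -0.02, 0.05, 0.05, 0.06 and 0.09, and over LP 0.03, -0.06, -0.03, 0.11 and 0.04. Hsf4, a heat shock factor, gave -0.28 over NP/Sed (adjusted p = 0.0692), Hspb3 gave 0.37 over LP (adjusted p = 0.144), and Hspd1, the HSP60 partner of Hspe1, gave -0.13 over LP (adjusted p = 0.596). Psmd14, a proteasome lid subunit, gave 0.25 over NP/Sed (adjusted p = 0.0518).

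Of the lists by function, which differ in size, the endoplasmic reticulum chaperones had most genes past the threshold over NP/Sed and over LP. Of 17, Creld2, Dnajc3, Manf and Pdia4 rose over NP/Sed (3.07% of all genes) and Hspa13 fell (0.792%). Over LP, Hyou1, Manf and Sdf2l1 rose (1.05% of all genes). The medians over NP/Sed and LP were 0.23 and 0.26. Over MP and over 21EX none of the 17 passed, and over 7EX 7 were higher (0.544% of all genes). Manf, a secreted factor induced by stress of this organelle, rose by 0.59 over NP/Sed (adjusted p = 0.0168) and by 0.74 over LP (adjusted p = 0.00339). Pdia4, a disulphide isomerase, rose by 0.53 over NP/Sed (adjusted p = 0.00839), and Hyou1, the HSP110 of the organelle, by 0.45 over LP (adjusted p = 0.0102). With the probe sets of a gene averaged, Pdia4 gave 0.19 and Hyou1 0.21, and neither passed. Single arrays left out removed the call of Manf over NP/Sed (NP/Sed-2, 0PP-1 or 0PP-3), of Hyou1 (LP-2), of Sdf2l1 (LP-1, LP-2, 0PP-1 or 0PP-3) and of Creld2 (any of 8 arrays). Of 20 immediate early genes, Egr2 (0.59, adjusted p = 0.0237) and Egr3 rose over NP/Sed and none passed against LP (2 higher and 3 lower unadjusted), with medians of 0.22 and -0.01. The call of Egr2 was lost without NP/Sed-2 or any one 0PP array. The 2 probe sets of Egr3 disagreed, at 1.08 (adjusted p = 0.0473) and -0.28 (adjusted p = 0.0952).

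**Figure D5:**
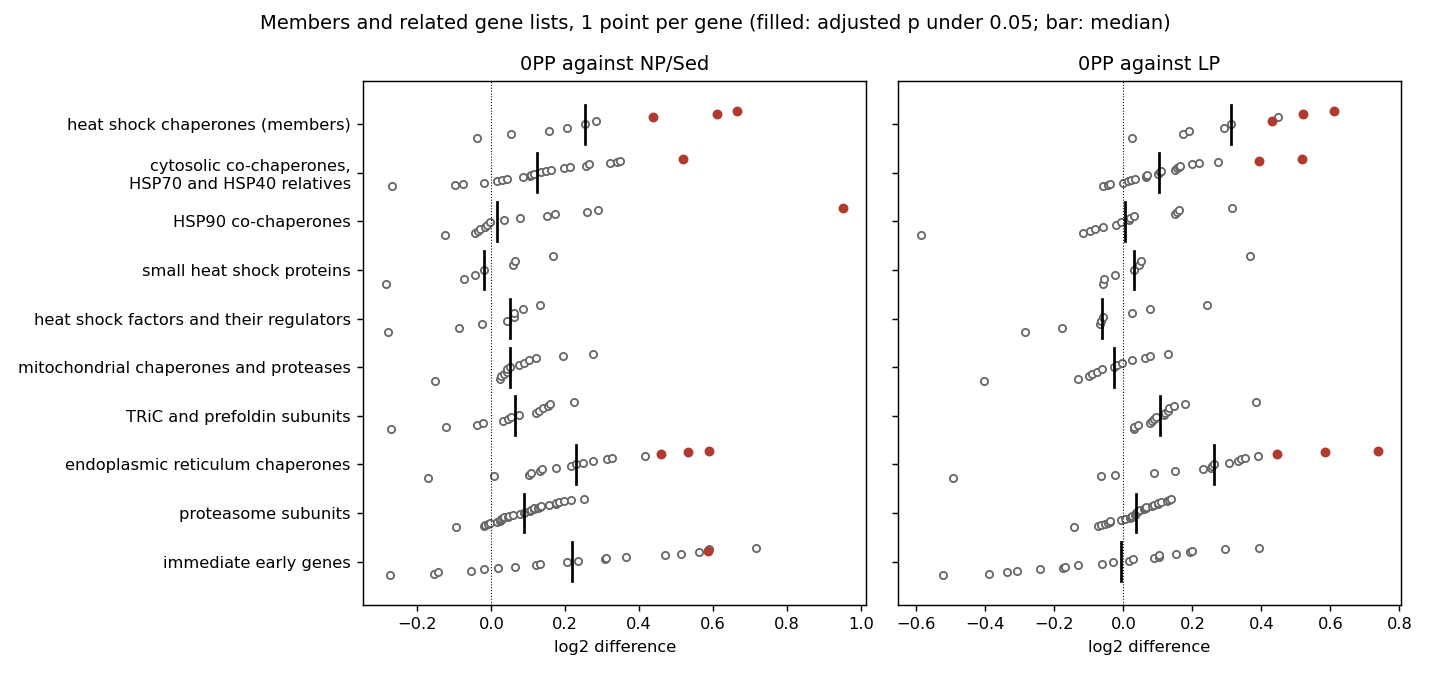
Log2 difference (x axis) of every gene of the members and of 9 related lists (y axis) between 0PP and NP/Sed (left) and 0PP and LP (right), at the probe set of highest mean. Filled red points passed an adjusted p of 0.05 and the bar is the median, which is 0.25 and 0.31 for the members and 0.23 and 0.26 for the endoplasmic reticulum chaperones.

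The genes whose profile over the 18 arrays lay nearest to that of Hspa1b, by the mean absolute difference of centred log2 values, were Dnaja1 (0.09), Creld2 (0.12), Sulf1 (0.13), Ubfd1 (0.14), E130309D02Rik (0.14), Tmem158 (0.15), Ddx21 (0.15) and Sdf2l1 (0.15). The median over all single-gene probe sets outside the members was 0.25. Among the members the nearest were Dnajb1 (0.14) and Hspa1a (0.16). Nearest to Hsp90aa1 were Timm8a1 (0.06), Gnpnat1 (0.06), Slc35a3 (0.07), Yipf5 (0.07), Enah (0.07), Gspt1 (0.07), Chordc1 (0.07) and Dnaja4 (0.08), against a median of 0.19 over the same probe sets. The measure favours probe sets with little spread, and the distances are descriptions without a test.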

How the data were processed

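The deposited values were log2 RMA signals, which the authors made in R 2.12.2 by background correction, normalization and summarization across all 18 arrays. No genome build applies to them. Of 45101 probe sets, 64 controls were left out. Of the 45037 tested, 34945 were annotated to 1 gene, 932 to several and 9160 to none. Means of 6 groups were fitted in limma 3.58.1 (R 4.3.3), with moderated two-sided tests on 12 residual and 6.45 prior degrees of freedom and Benjamini-Hochberg adjustment over all probe sets within each of 9 comparisons. Members and lists were chosen with earlier results of these data known. Genes named were the members, up to 4 of each list with the smallest p in 0PP against NP/Sed or LP, those past the threshold, and the 8 nearest to Hspa1b and to Hsp90aa1. Summed levels are sums of linear signals at each marker's probe set of highest mean. On simulated data with 50 changes of each size, limma recovered 31 at a log2 change of 0.5 and 49 at 1, with 13 unchanged probe sets called. With 3 arrays per group, their number limits the precision. Alternatives were 11 settings, among them Cyber-T (window 101, prior weight 10) and a 75% change, and each array left out. Arrays of the same replicate number did not deviate together (45 pairs, median r -0.04). Fold and p columns of the authors were not used.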

Additional observations from a re-analysis of the deposited data

Results flagged for a closer look

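The change from NP/Sed to 0PP differed from the change at another stage for 8 pairs of a gene and a stage, by the limma test of the difference itself (adjusted p under 0.05). Against the LP change the log2 difference was 0.61 for Hspa1b, 0.43 for Hsp90aa1 and 0.52 for Hsph1. Against the MP change it was 0.50 for Hspa1a, 0.71 for Hspa1b and 0.46 for Hsp90aa1. Against the 7EX change it was 0.72 for Hspa1a and 0.62 for Hspa1b. All 3 arrays of 0PP lay above all 3 of the other stage in each of the 8. This separation is no further evidence, since the pairs were picked by a test of the same arrays. Each call against the LP or MP change was lost with certain single arrays left out. Against 7EX the member count fell to 1 without 7EX-2, 7EX-3 or 0PP-1, so Hspa1a and Hspa1b did not both keep their calls there. With the 3′ minus 5′ covariate, 0 of all 45037 probe sets were higher over 7EX.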

How the results depend on the processing

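The number of the 9 genes past the threshold, all of them higher, was for 0PP 3 over NP/Sed, 3 over LP, 4 over MP, 3 over 7EX and 0 over 21EX, and 0 in LP, 0 in MP, 0 in 7EX and 1 in 21EX over NP/Sed. With a change of at least 75% required it was 1, 1, 2, 1 and 0 for 0PP and 0 for 21EX. The Cyber-T test gave 4, 4, 7, 5 and 3 for 0PP (1 of the last 3 also lower at another probe set), 1 for MP, which was lower, and 3 for 21EX, and an intensity trend in the prior 5, 4, 5, 3 and 1. Median centring of the arrays gave 5 over NP/Sed and 5 over LP. A fit of only the 2 groups compared gave 0 over LP and 1 over MP, where fewer arrays inform the spread, and the probe set of highest mean alone gave 5 over LP, where fewer probe sets are tested. With the 3′ minus 5′ covariate it was 1 over MP and 0 over 7EX. Many of these counts, but not all, move with those of all 45037 probe sets: the number higher in 0PP over NP/Sed, LP, MP, 7EX and 21EX was 659, 255, 149, 131 and 77 in the reported fit, 828, 405, 1196, 796 and 769 with Cyber-T, 923, 348, 226, 197 and 135 with the intensity trend, 36 over MP and 0 over 7EX with the covariate, 50 over LP and 4 over MP with only the 2 groups, 1456 over NP/Sed and 271 over LP with median centring, and 52 over MP with the replicate block. With the covariate the members over NP/Sed went from 3 to 4, while the total went from 659 to 500. With the replicate block the totals fell to 435 over NP/Sed and 194 over LP, without a fall in the members. The replicate block gave 3 over NP/Sed, 3 over LP, 1 over MP and 2 over 7EX, beside 0 for 21EX over NP/Sed, which was also 0 with repeated quantile normalization, with probe sets averaged per gene and with the RNA quality covariate. The replicate numbers share no more than a number: 2 of 18 arrays lay nearest to an array of their own number, and same-number pairs correlated from -0.27 to 0.18. The causes of these shifts were not tested beyond what is said. With each array left out in turn, the member counts ran from 2 to 5 over NP/Sed, 0 to 5 over LP, 0 to 5 over MP, 1 to 3 over 7EX and 0 to 0 over 21EX, from 0 to 1 in MP (1 without MP-1, which was lower) and from 0 to 1 in 21EX. Directions reversed for Cryab between 0PP and NP/Sed (-0.04, but 0.015 with median centring and 0.049 with its probe sets averaged) and for Hspe1 (0.05, but -0.0060 with the 3′ minus 5′ covariate and, without NP/Sed-1, -0.054, the lowest of a range up to 0.12 with arrays left out). Of the recomputed values of single genes 4 reversed as given, 704 kept direction and call, 112 lost the call and 18 gained it. With 3 arrays per group, a log2 change of 0.5 was found in 31 of 50 simulated probe sets, so smaller changes may go uncalled.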
